A study of Mus musculus with 6 samples.

Results

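Semaphorins, Slits and netrins are secreted or membrane-bound guidance ligands, and neuropilins, plexins, Robo and Unc5 proteins are their main receptors. Genes of these families were taken by a rule on symbols, set with earlier results of these data known. It took every semaphorin, plexin, neuropilin, Slit, Robo, netrin, netrin-G and Unc5 gene with a probe set of its own in the array's annotation. The rule found 48 genes of the 18193 that could be tested, of which 29 encode ligands and 19 encode receptors. They were read in 3 sorted cell populations of the hair follicle, with 2 arrays each.

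The donors were untreated female CD-1 mice, whose back skin was dissociated, and the 6 samples were hybridised to Affymetrix mouse arrays. HF-TAC, the transient-amplifying cells of the hair matrix, were sorted by GFP, integrin α6 and ephrinB1 at postnatal days 28 to 30. The aHF-SC, activated stem cells, were taken at the same ages by GFP, integrin α6 and CD34. The qHF-SC, quiescent stem cells, were taken at postnatal days 52 to 60 by integrin α6 and CD34. The labels do not say which transgene or promoter gave the GFP, or which side of each gate was kept. Against qHF-SC, the age and the sorting scheme change together with the state of the cells, and between HF-TAC and aHF-SC the sorting scheme changes with cell type, so that these cannot be told apart. Nothing in the labels says that the 2 arrays of a group came from separate animals, and p-values then measure only the spread between arrays, which may be technical. The 3 comparisons share groups and are not independent of each other.

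The labelled cell types were set against their markers. Cd34, the stem cell sorting marker, averaged 20.5 ± 7.39 in HF-TAC, 2817 ± 612 in aHF-SC and 7871 ± 970 in qHF-SC (linear intensity, SD, n = 2 each). Itga6, the gene of integrin α6, used in all 3 sorts, averaged 962 ± 153, 2525 ± 350 and 2466 ± 489 in that order. Efnb1, the gene of ephrinB1, used to sort HF-TAC, averaged 927 ± 116, 761 ± 48.2 and 501 ± 114. In limma, Efnb1 in HF-TAC passed as higher against qHF-SC (adjusted p = 0.0145) but did not pass against aHF-SC (adjusted p = 0.448). All 10 listed markers of bulge stem cells were lower in HF-TAC than in aHF-SC, and 7 of 9 measured matrix markers were higher. Summed matrix markers were 5938 and 9300 in HF-TAC, 1635 and 1516 in aHF-SC and 845 and 649 in qHF-SC. Correlation between the 2 arrays of a group over all genes was 0.9885 to 0.9915 on the log2 scale. As a guide to dim signal, a background level of 16.63 was taken from genes of tissues other than skin, and 38 of the 48 guidance genes had a mean above it in all groups. Only 10 of the 19 measured genes of that list had a mean at or under it in each group. A value above this level therefore does not show that a gene is expressed.

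Semaphorins of class 3 are secreted and are known to bind a receptor complex in which a neuropilin holds the ligand and a plexin carries the signal into the cell. Membrane semaphorins mostly bind plexins directly. Slits act through Robo receptors, and netrins attract or repel cells and axons through Dcc, neogenin and Unc5 receptors. All were first known for steering axons, and the same molecules act on adhesion, the actin cytoskeleton, blood vessels and epithelia. In skin, hair follicles are wrapped by nerves and capillaries, and follicle keratinocytes express guidance ligands themselves.

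In all, 13 of the guidance genes, described by role, differed in at least 1 comparison, and the other 35 passed the test in none on the probe set used for the gene. Of those 35, 2 genes, Sema3f and Sema6a, had other probe sets that passed, which are given with their families. In HF-TAC against aHF-SC, 6 rose and 4 fell, which is 20.8% of 48 against 17.5% of all genes tested (8.97% higher and 8.57% lower). In HF-TAC against qHF-SC, 6 rose and 5 fell, or 22.9% against 26.3% of all genes (13.4% higher and 12.9% lower). In aHF-SC against qHF-SC, 1 rose and 4 fell, or 10.4% against 6.28% of all genes (3.07% higher and 3.21% lower). The share of guidance genes that changed was therefore close to that of all genes in both HF-TAC comparisons, and the third rests on 5 genes. The median log2 difference of the 48 was -0.10, -0.05 and 0.05 in that order of comparisons, beside -0.01, -0.01 and 0.00 for all genes. Here and below, a gene passed when limma's p-value, adjusted by Benjamini-Hochberg over all 18193 genes, was under 0.05, and differences are log2 values ± standard error.

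In HF-TAC against aHF-SC, 4 of the 19 receptors rose and 0 fell (6 had an unadjusted p under 0.05 in limma, in either direction), and 2 of the 29 ligands rose and 4 fell, or 21.1% and 20.7% changed. In HF-TAC against qHF-SC, 3 receptors rose and 2 fell, and 3 ligands rose and 3 fell. The difference between receptors and ligands was not tested. Both HF-TAC comparisons gave higher values for Sema4d, Nrp2, Robo1, Ntn1 and Unc5b, and both gave lower values for Sema3c, Sema3e and Ntn4. In such RNA from whole populations, fewer cells expressing a gene and less of its RNA per cell cannot be told apart.

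**Figure D1:**
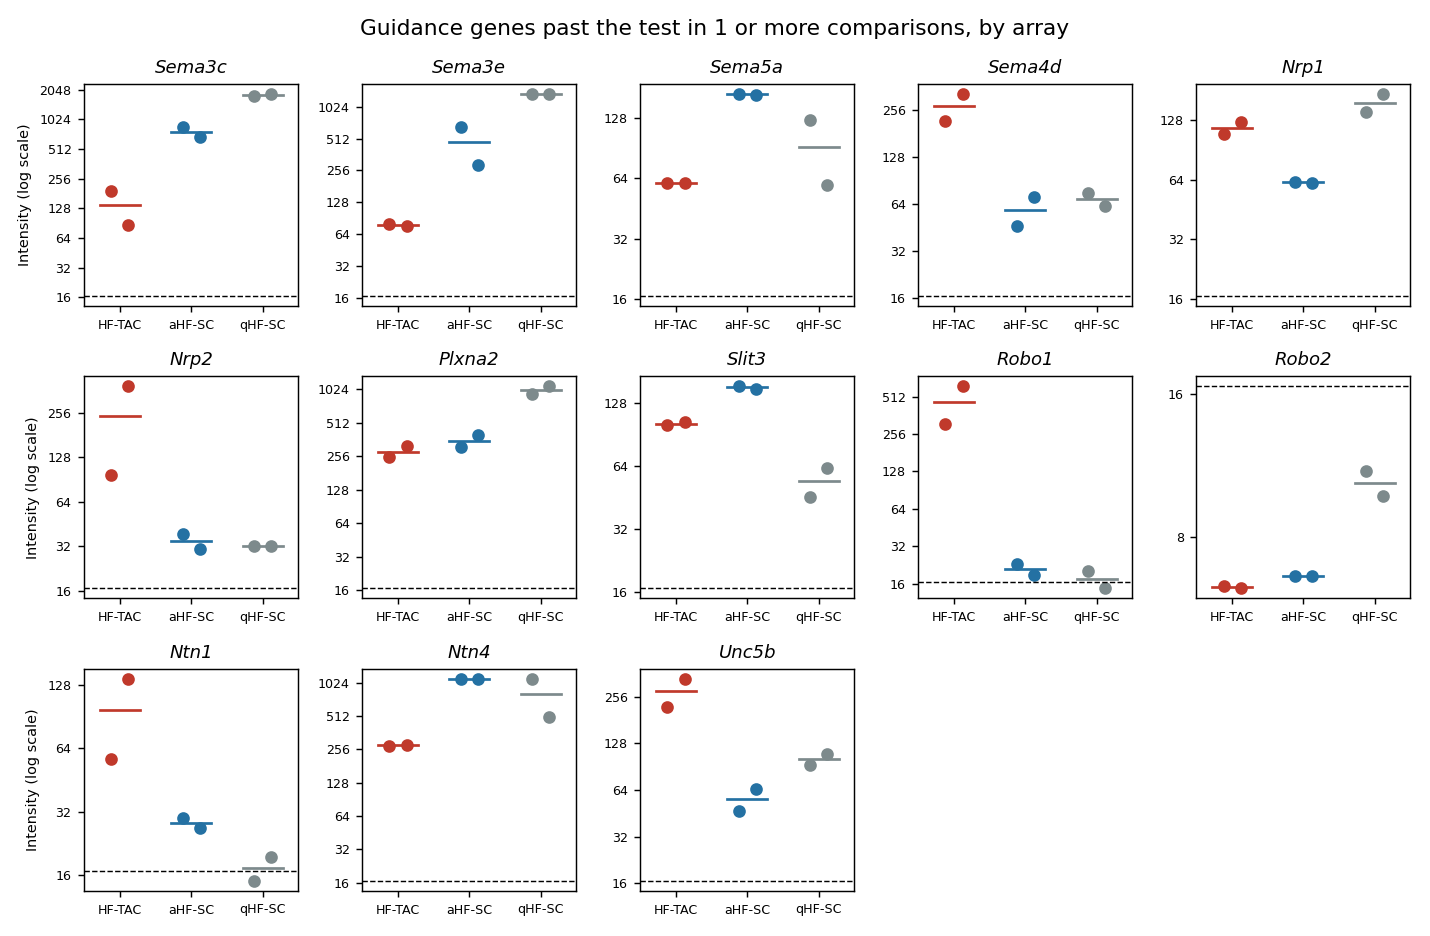
Linear intensity (log axis) of the 13 guidance genes past the test, with 1 point per array and a bar at the mean of each group of 2. HF-TAC lie at the top for Sema4d, Nrp2, Robo1, Ntn1 and Unc5b, and at the bottom for Sema3c, Sema3e and Ntn4, and the dotted line marks the background level of 16.63.

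Among the class 3 semaphorins, Sema3c and Sema3e were both lower in HF-TAC than in either stem cell group. Sema3e is a ligand that can bind Plxnd1 without a neuropilin, and Sema3c is known to act through both neuropilins. The promoter sequences of the pair are shown because both genes fell together: each is the 250 bases before the start site in RefSeq's GRCm38.p6, 5′ to 3′ on the gene's strand, at chr5:17574566-17574815 for Sema3c and chr5:14025026-14025275 for Sema3e, both on the plus strand. Capitals mark matches on either strand to the GC box (GGGCGG), TCF/LEF (CTTTGA) and NFAT (GGAAAA) motifs, and the TATA box (TATAAA) and LIM homeodomain (TAATTA) motifs were searched too.
Sema3c: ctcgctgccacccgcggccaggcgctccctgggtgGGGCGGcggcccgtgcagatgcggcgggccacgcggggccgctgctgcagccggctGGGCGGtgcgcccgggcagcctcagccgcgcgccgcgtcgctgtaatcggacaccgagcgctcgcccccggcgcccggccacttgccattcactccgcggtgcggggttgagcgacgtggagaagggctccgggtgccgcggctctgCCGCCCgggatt
Sema3e: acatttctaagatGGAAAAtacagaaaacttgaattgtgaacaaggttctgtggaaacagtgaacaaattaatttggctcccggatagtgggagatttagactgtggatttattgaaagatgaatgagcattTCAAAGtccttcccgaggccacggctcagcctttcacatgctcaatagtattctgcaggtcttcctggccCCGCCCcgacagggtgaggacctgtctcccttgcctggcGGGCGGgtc
The Sema3c window held 39 CpG dinucleotides, 78.4% G and C, and 3 GC boxes. The Sema3e window held 7 CpG, 48% G and C, 2 GC boxes and 1 match each to TCF/LEF and NFAT. Among all 32851 windows, 32.7% hold a GC box, 13.8% the TCF/LEF motif, 20.4% the NFAT motif, 12.4% the TATA box and 4.84% the LIM homeodomain motif. Of the 40 guidance genes with a window, 29 had a GC box in at least 1 window, and of the 12 such genes that passed the test, 10 did. The 40 genes have 53 windows, so these counts of genes are not comparable with the shares of windows. A match is a run of letters and says nothing of binding.

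Sema3c intensity was 193 and 86.0 in HF-TAC, 848 and 683 in aHF-SC, and 1773 and 1862 in qHF-SC. The groups did not overlap, and qHF-SC were highest. Sema3c fell by 2.56 ± 0.35 in HF-TAC against aHF-SC (5.90-fold, adjusted p = 0.00305) and against qHF-SC by 3.82 ± 0.35 (14.1-fold, adjusted p = 0.00035). The lower value in aHF-SC than in qHF-SC, a difference of -1.26 ± 0.35, missed the threshold (adjusted p = 0.0865). Sema3e intensity was 79.0 and 76.3 in HF-TAC, 663 and 288 in aHF-SC, and 1367 on both qHF-SC arrays. The 2 aHF-SC arrays stood more than 2-fold apart, between the other groups. Sema3e fell by 2.49 ± 0.35 in HF-TAC against aHF-SC (5.62-fold, adjusted p = 0.00334) and against qHF-SC by 4.14 ± 0.35 (17.6-fold, adjusted p = 0.000254). Leaving out aHF-SC replicate 1 gave -1.89 against aHF-SC, and leaving out replicate 2 gave -3.09. It also fell in aHF-SC against qHF-SC, by 1.65 ± 0.35 (3.13-fold, adjusted p = 0.0387). All 4 probe sets of Sema3e passed the test in the same direction in all 3 comparisons, and both Sema3c probe sets did so in the HF-TAC comparisons, with a mean of -2.92 against qHF-SC. Sema3e in aHF-SC against qHF-SC lost its call without qHF-SC replicate 1 (adjusted p = 0.143) or qHF-SC replicate 2 (adjusted p = 0.194), and its size was -2.25 when aHF-SC replicate 1 was left out and -1.04 when replicate 2 was. In RefSeq's gene order, the genes Sema3d, Sema3a, Sema3e and Sema3c lie in sequence on chromosome 5, with 3 coding genes between Sema3a and Sema3e and 15 between Sema3e and Sema3c.

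The other class 3 members did not pass on the probe set used for the gene. Sema3d was high on 1 HF-TAC array, at 98.3 and 25.4 in HF-TAC, 35.4 and 18.1 in aHF-SC, and 36.5 and 23 in qHF-SC. Its groups overlapped, and its difference in HF-TAC against aHF-SC was 0.98 ± 0.61 with a 95% interval of -0.46 to 2.42. Sema3a and Sema3g were at or below the background level in every group. Sema3b lay between 23.1 and 31.8 on every array.

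For Sema3f, a class 3 semaphorin known to act through Nrp2, the probe sets disagreed in size. The one used, of a kind that can cross-hybridise, lay between 367 and 594, with the highest values in aHF-SC, and passed in no comparison. The other 2 probe sets, dimmer but above background in all groups, both passed as highest in aHF-SC. The brighter of these read 86.9 and 74.0 in HF-TAC, 202 and 322 in aHF-SC, and 93.2 and 78.4 in qHF-SC. Its differences were -1.67 ± 0.24 in HF-TAC against aHF-SC (adjusted p = 0.00404) and 1.58 ± 0.24 in aHF-SC against qHF-SC (adjusted p = 0.0143). The dimmer gave -1.79 ± 0.35 (adjusted p = 0.0139) and 2.03 ± 0.35 (adjusted p = 0.02) in the same comparisons.

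Both neuropilins rose in HF-TAC against aHF-SC, but they differed in how qHF-SC stood. Nrp2, a co-receptor known for binding class 3 semaphorins and VEGF-C, has a promoter window at chr1:62703067-62703316 on the plus strand of GRCm38.p6. It is shown as the receptor gene of this family that was higher in HF-TAC throughout, with capitals for the GC boxes and 1 TCF/LEF match.
Nrp2: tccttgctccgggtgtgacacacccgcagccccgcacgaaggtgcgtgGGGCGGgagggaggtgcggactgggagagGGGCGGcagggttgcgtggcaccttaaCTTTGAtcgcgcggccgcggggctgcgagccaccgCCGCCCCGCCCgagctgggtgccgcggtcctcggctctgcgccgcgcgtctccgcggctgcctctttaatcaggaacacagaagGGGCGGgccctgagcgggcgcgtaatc
The window held 32 CpG and 5 GC box matches, 2 of them overlapping by a base. Nrp2 intensity was 97.4 and 388 in HF-TAC, 38.9 and 30.6 in aHF-SC, and 32.0 and 32.3 in qHF-SC. Both HF-TAC arrays exceeded all stem cell arrays but stood about 4-fold apart. Of the 4 Nrp2 probe sets, 3 passed as higher in HF-TAC against aHF-SC and all 4 against qHF-SC. All but the one used had stem cell means under the background level, so no size is given for them. The values that follow are those of the probe set used. Nrp2 rose in HF-TAC by 2.49 ± 0.55 against aHF-SC (5.64-fold, adjusted p = 0.0208) and by 2.60 ± 0.55 against qHF-SC (6.05-fold, adjusted p = 0.0119). Without HF-TAC replicate 2 these differences were 1.5 and 1.6, and without HF-TAC replicate 1 they were 3.49 and 3.59. The call against aHF-SC was lost without aHF-SC replicate 1 (adjusted p = 0.0643) or replicate 2 (adjusted p = 0.112), and the call against qHF-SC without qHF-SC replicate 1 (adjusted p = 0.0603) or replicate 2 (adjusted p = 0.0629).

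Nrp1, the co-receptor of Sema3a and VEGF-A, was lowest in aHF-SC. Its intensity was 108 and 125 in HF-TAC, 62.3 and 61.9 in aHF-SC, and 140 and 174 in qHF-SC, with no overlap between groups. Nrp1 rose in HF-TAC against aHF-SC by 0.91 ± 0.17 (1.88-fold, adjusted p = 0.0114) and fell by 1.33 ± 0.17 in aHF-SC against qHF-SC (2.51-fold, adjusted p = 0.00962). HF-TAC and qHF-SC did not differ past the threshold (-0.42, 95% interval -0.82 to -0.02, adjusted p = 0.125). Nrp1 was called by 1 of its 4 probe sets, all above the background level, and in HF-TAC against aHF-SC they ranged from -0.18 to 0.91. With the mean of the 4, the difference was 0.55 in that comparison (adjusted p = 0.0416) and -0.78 in aHF-SC against qHF-SC (adjusted p = 0.0305). Its call in HF-TAC against aHF-SC was lost without aHF-SC replicate 1 (adjusted p = 0.0507), aHF-SC replicate 2 (adjusted p = 0.0624) or HF-TAC replicate 2 (adjusted p = 0.0564). Its call in aHF-SC against qHF-SC was lost without aHF-SC replicate 1 (adjusted p = 0.0529) or qHF-SC replicate 2 (adjusted p = 0.0695).

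Of 4 A-type plexins, the signalling receptors for class 3 and class 6 semaphorins, Plxna2 alone passed the test. Plxna2 intensity was 249 and 313 in HF-TAC, 310 and 393 in aHF-SC, and 929 and 1087 in qHF-SC. The quiescent cells stood above both other groups, which overlapped. Plxna2 fell by 1.53 ± 0.20 in aHF-SC against qHF-SC (2.88-fold, adjusted p = 0.00962) and in HF-TAC against qHF-SC by 1.85 ± 0.20 (3.60-fold, adjusted p = 0.00066). HF-TAC against aHF-SC gave -0.32, with an interval of -0.78 to 0.14. All 4 Plxna2 probe sets passed in both comparisons with qHF-SC, at -1.98 to -1.53 and -2.56 to -1.85. The aHF-SC call was lost without qHF-SC replicate 2 (adjusted p = 0.0756) or aHF-SC replicate 1 (adjusted p = 0.0536).

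The remaining plexins did not pass in any comparison. Plxna1 was 245 and 390 in HF-TAC, 222 and 364 in aHF-SC, and 200 and 174 in qHF-SC, so both groups of younger mice were above qHF-SC, with a difference of 0.73 ± 0.30 in HF-TAC against qHF-SC (adjusted p = 0.123). Plxna3 was 91.7 and 118 in HF-TAC, 138 and 183 in aHF-SC, and 109 and 128 in qHF-SC, with -0.61 ± 0.21 in HF-TAC against aHF-SC (adjusted p = 0.0955). Among the B plexins, which are receptors of class 4 semaphorins, Plxnb1 and Plxnb2 lay between 193 and 601 on all arrays. Plxnb2 differed by 0.28 in HF-TAC against aHF-SC, with a 95% interval of -0.21 to 0.77. Plxnd1, the Sema3e receptor, was 30.4 and 27.3 in HF-TAC, 30.6 and 33.4 in aHF-SC, and 26.8 and 38.4 in qHF-SC, and its interval in HF-TAC against aHF-SC was -0.63 to 0.32. Plxnc1, a receptor of Sema7a, was at or below the background level in every group.

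**Figure D2:**
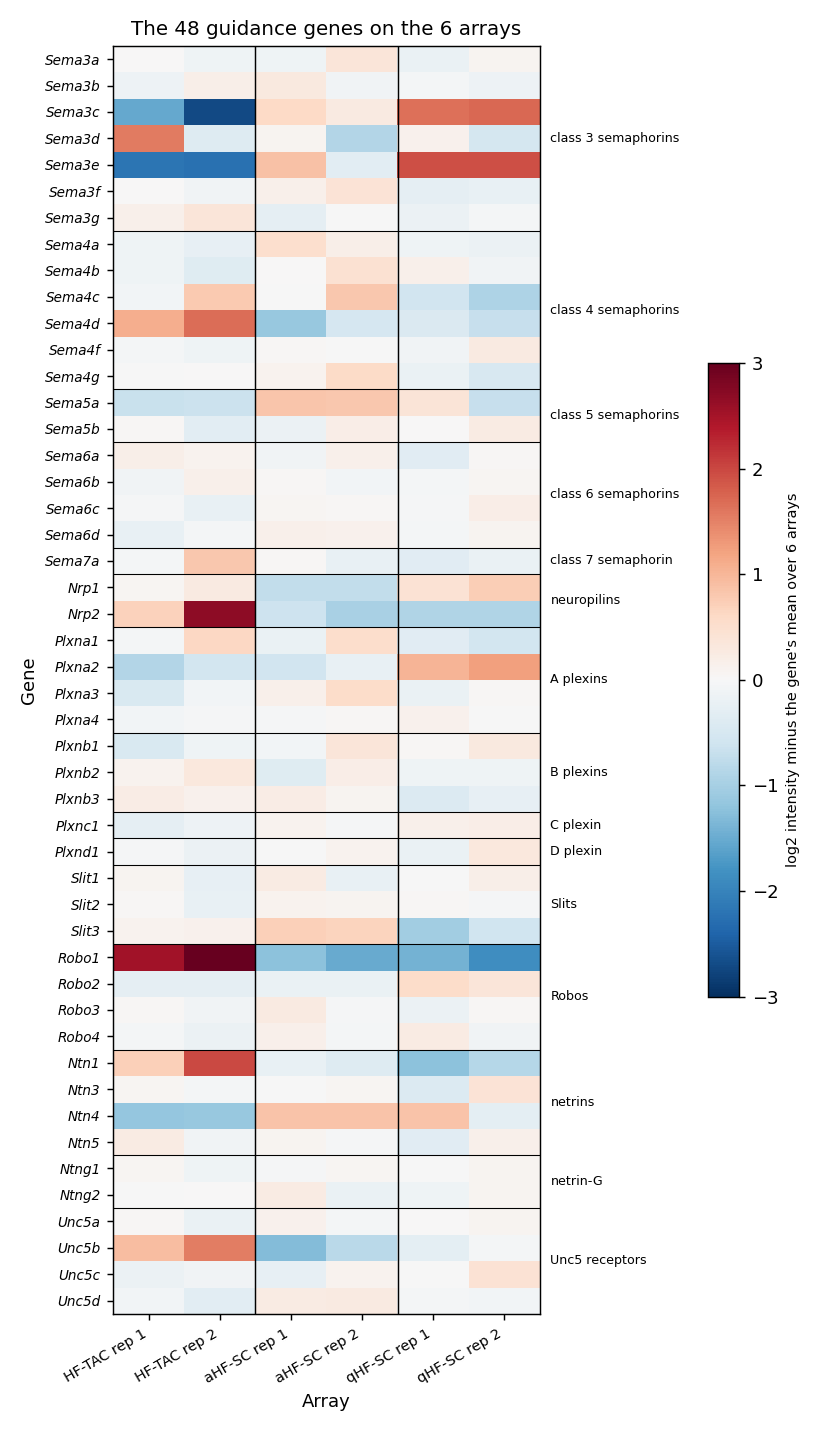
Log2 intensity of each of the 48 guidance genes minus that gene's mean over all 6 arrays, with genes in rows by family and arrays in columns by group, from red (above the mean) to blue (below it). The colour scale ends at 3 in either direction. Robo1, Sema3c and Sema3e show strong contrasts between HF-TAC and the stem cell groups. Robo2, which passed the test at background intensity, varies less than Sema3d and Sema4c, which did not pass.

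Among membrane semaphorins, Sema4d rose in HF-TAC and Sema5a fell. Sema4d, also known as CD100, is a ligand of B plexins. Its intensity was 218 and 325 in HF-TAC, 46.6 and 71.3 in aHF-SC, and 75 and 62.6 in qHF-SC. HF-TAC did not overlap with either stem cell group. Sema4d rose in HF-TAC against aHF-SC by 2.21 ± 0.27 (4.61-fold, adjusted p = 0.00214) and against qHF-SC by 1.96 ± 0.27 (3.88-fold, adjusted p = 0.00189), and the stem cell groups differed by -0.25 (95% interval -0.89 to 0.39). A second Sema4d probe set above the background level gave -0.02 in HF-TAC against aHF-SC, and the mean of all 3 probe sets gave 0.77, and 0.62 against qHF-SC.

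Sema5a, a membrane semaphorin with thrombospondin repeats, was 60.7 and 60.9 in HF-TAC, 170 and 167 in aHF-SC, and 125 and 59.1 in qHF-SC. The 2 qHF-SC arrays differed by more than 2-fold, and the aHF-SC arrays exceeded all others. Sema5a fell by 1.47 ± 0.32 in HF-TAC against aHF-SC (2.77-fold, adjusted p = 0.0187), a call that was lost without aHF-SC replicate 1 (adjusted p = 0.0774) or replicate 2 (adjusted p = 0.0881). It was also lost with HF-TAC replicate 1 (adjusted p = 0.06) or replicate 2 (adjusted p = 0.0682) left out. The mean of its 4 probe sets gave -0.85 (adjusted p = 0.0295). In aHF-SC against qHF-SC it was higher by 0.97, which did not pass (adjusted p = 0.132). Without qHF-SC replicate 1 that difference was 1.51 (adjusted p = 0.0141), and without qHF-SC replicate 2 it was 0.43 (adjusted p = 0.401).

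Sema4c, a ligand of Plxnb2, was 26.8 and 48.8 in HF-TAC, 28.1 and 49.4 in aHF-SC, and 18.9 and 14.8 in qHF-SC. Both groups of younger mice lay above qHF-SC. Its difference in HF-TAC against qHF-SC was 1.12 ± 0.35 (adjusted p = 0.056) and in aHF-SC against qHF-SC 1.16 ± 0.35 (adjusted p = 0.113). The other class 4 members (Sema4a, Sema4b, Sema4f, Sema4g), Sema5b, 4 class 6 members and Sema7a passed in no comparison on the probe sets used, where the class 6 genes, Sema6a to Sema6d, differed by -0.28 to 0.29. For Sema6a, a ligand of A plexins, another probe set read 32.9 and 52.2 in HF-TAC, 13.5 and 17.8 in aHF-SC, and 12.97 and 13.49 in qHF-SC. It passed as higher in HF-TAC than in aHF-SC (adjusted p = 0.00843) and than in qHF-SC (adjusted p = 0.00256). The mean of each stem cell group was under the background level there, so no fold is given. The remaining Sema6a probe set, dimmer in HF-TAC, also passed as higher there than in qHF-SC (adjusted p = 0.011).

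**Figure D3:**
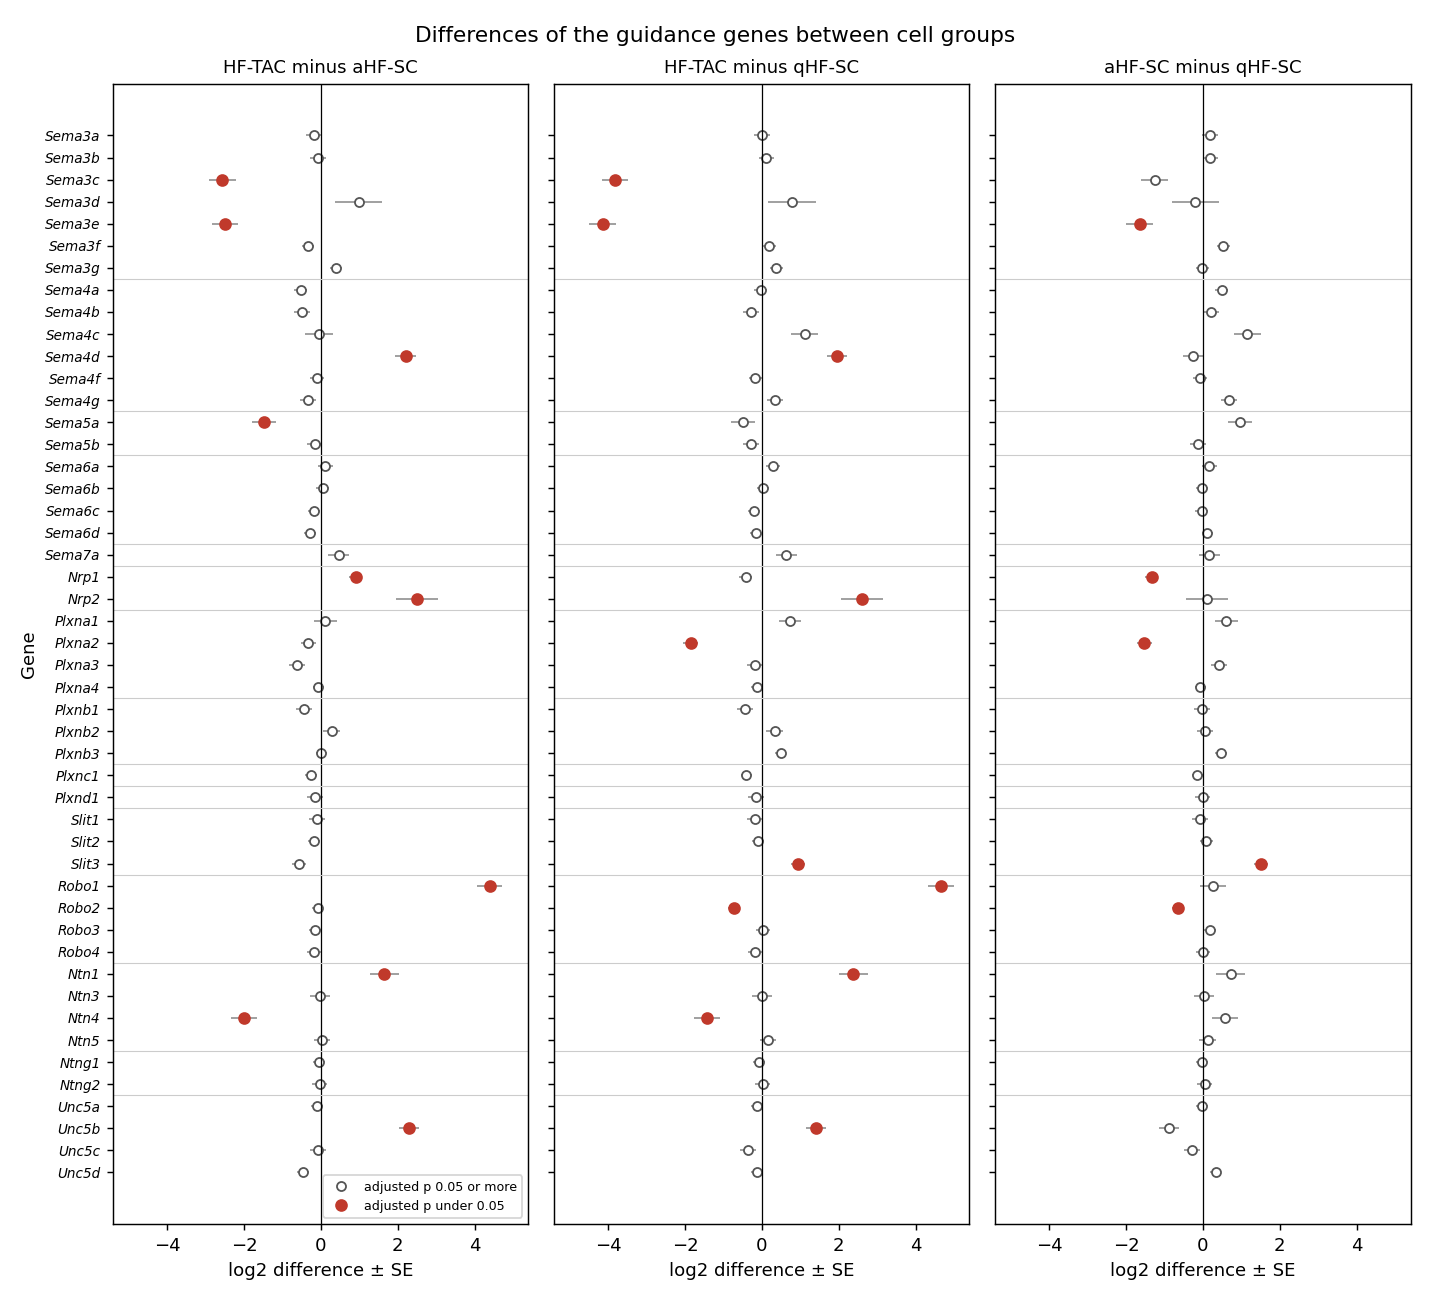
Log2 difference with its standard error of all 48 guidance genes in the 3 comparisons, HF-TAC against aHF-SC, HF-TAC against qHF-SC and aHF-SC against qHF-SC, on a common axis. Filled points passed the test and open points did not. The calls number 10, 11 and 5 in that order.

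In the Slit and Robo families, Robo1, a receptor for the Slit ligands, was higher in HF-TAC than in both stem cell groups. Its promoter window, at chr16:72662899-72663148 on the plus strand of GRCm38.p6 and shown because Robo1 had the greatest difference among the probe sets used, held 11 CpG and no match to the 5 motifs, so that no letter is in capitals.
Robo1: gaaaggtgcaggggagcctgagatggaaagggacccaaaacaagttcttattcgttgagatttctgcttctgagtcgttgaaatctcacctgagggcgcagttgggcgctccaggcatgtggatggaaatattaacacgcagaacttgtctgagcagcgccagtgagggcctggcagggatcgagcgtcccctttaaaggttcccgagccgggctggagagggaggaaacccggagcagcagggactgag
Robo1 intensity was 308 and 620 in HF-TAC, 23.1 and 18.8 in aHF-SC, and 20.3 and 14.7 in qHF-SC. Both stem cell groups were close to the background level of 16.63, and the HF-TAC arrays stood about 2-fold apart. Robo1 rose in HF-TAC against aHF-SC by 4.39 ± 0.33 (21.0-fold, adjusted p = 0.000417) and against qHF-SC by 4.66 ± 0.33 (25.3-fold, adjusted p = 0.000133). Of its 3 probe sets, 2 passed, and the mean of all 3 gave 1.77 and 1.90 in the same comparisons, with 1 probe set at the background level among them. With an offset of 16 added before log2 the differences were 3.62 and 3.76. Robo2, its neighbour on chromosome 16 with no coding gene between them, was at or below the background level in every group, with 6.29 and 6.22 in HF-TAC, 6.60 and 6.61 in aHF-SC, and 11 and 9.75 in qHF-SC. Robo2 passed the test as lower in HF-TAC than in qHF-SC (adjusted p = 0.00993) and in aHF-SC than in qHF-SC (adjusted p = 0.048), but all its values lie at background, so no fold is given. The second call was lost when any 1 of the 6 arrays was left out (adjusted p from 0.0581 to 0.217), and the first without qHF-SC replicate 1 (adjusted p = 0.0692). Robo3 and Robo4 passed in no comparison, and Robo4 was at or below background.

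Slit3, a secreted ligand of Robo1 and Robo2, was highest in aHF-SC. Its intensity was 101.1 and 103.6 in HF-TAC, 154 and 150 in aHF-SC, and 45.5 and 62.5 in qHF-SC, and the groups did not overlap. Slit3 rose in aHF-SC against qHF-SC by 1.51 ± 0.19 (2.86-fold, adjusted p = 0.00808) and in HF-TAC against qHF-SC by 0.94 ± 0.19 (1.92-fold, adjusted p = 0.00877). HF-TAC against aHF-SC gave -0.57 ± 0.19 (95% interval -1.01 to -0.14, adjusted p = 0.0781). The HF-TAC call was lost without qHF-SC replicate 1 (adjusted p = 0.0513). Slit1 lay between 56.9 and 80.5 on the 6 arrays and Slit2 was at or below background. Slit3 is represented by 1 probe set, so no second probe set bears on it.

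The dissociation stress genes, a list of immediate early and heat shock genes, moved with the aHF-SC and HF-TAC groups. Their summed intensity was 60283 and 52576 in HF-TAC, 71249 and 100480 in aHF-SC, and 32560 and 24913 in qHF-SC, and 10 of 12 were higher in each of these groups than in qHF-SC. Slit3 was likewise higher in both than in qHF-SC, and the part of this list in the Slit3 values was not tested.

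Netrin genes split between the groups. Ntn1, the secreted netrin whose receptors are Dcc, neogenin and Unc5 proteins, was 57.0 and 138 in HF-TAC, 29.8 and 26.8 in aHF-SC, and 15.0 and 19.4 in qHF-SC, the last close to background. Ntn1 rose in HF-TAC by 1.65 ± 0.38 against aHF-SC (3.13-fold, adjusted p = 0.0242) and by 2.38 ± 0.38 against qHF-SC (5.19-fold, adjusted p = 0.0035). The call against aHF-SC was lost without aHF-SC replicate 1 (adjusted p = 0.0793) or replicate 2 (adjusted p = 0.119), and with the mean of both probe sets the difference was 0.88 (adjusted p = 0.0528), and 1.22 against qHF-SC (adjusted p = 0.0111). Without HF-TAC replicate 2 the difference against aHF-SC was 1.01, and without HF-TAC replicate 1 it was 2.28. Against qHF-SC these values were 1.74 and 3.01, and 1.68 with the offset of 16. Ntn4, a netrin of basement membranes that binds laminins, went the other way, at 274 and 281 in HF-TAC, 1112 and 1111 in aHF-SC, and 1113 and 500 in qHF-SC. Ntn4 fell by 2.00 ± 0.33 in HF-TAC against aHF-SC (4-fold, adjusted p = 0.00679) and against qHF-SC by 1.43 ± 0.33 (2.69-fold, adjusted p = 0.0178). The other Ntn4 probe set, above background in all groups, gave -1.36 against aHF-SC (adjusted p = 0.00606). Against qHF-SC that probe set gave -0.55 and did not pass (adjusted p = 0.119). The stem cell groups overlapped for Ntn4 and did not differ past the threshold (0.57, 95% interval -0.21 to 1.36). Its call against qHF-SC was lost without HF-TAC replicate 1 (adjusted p = 0.0612) or replicate 2 (adjusted p = 0.0624), and the difference was -0.85 without qHF-SC replicate 1. Ntn3 was at background, and Ntn5, Ntng1 and Ntng2 passed in no comparison.

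Unc5b, a netrin receptor known also for its part in blood vessel branching, has a promoter window at chr10:60831582-60831831 on the minus strand of GRCm38.p6, printed 5′ to 3′ along the gene and shown because Unc5b rose in HF-TAC together with Nrp2 and Robo1.
Unc5b: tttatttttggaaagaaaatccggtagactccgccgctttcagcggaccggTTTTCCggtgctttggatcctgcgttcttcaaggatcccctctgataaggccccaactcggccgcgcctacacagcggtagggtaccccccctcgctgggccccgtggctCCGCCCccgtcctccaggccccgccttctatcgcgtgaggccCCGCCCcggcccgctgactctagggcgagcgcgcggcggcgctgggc
The capitals mark 2 GC box matches and 1 NFAT match, and the window held 27 CpG and 66.8% G and C. Unc5b intensity was 219 and 334 in HF-TAC, 46.9 and 65.1 in aHF-SC, and 93.4 and 110 in qHF-SC. The 3 groups did not overlap, with HF-TAC highest and aHF-SC lowest. Unc5b rose in HF-TAC against aHF-SC by 2.29 ± 0.25 (4.89-fold, adjusted p = 0.00151) and against qHF-SC by 1.42 ± 0.25 (2.67-fold, adjusted p = 0.0059), on both of its probe sets. Its lower value in aHF-SC than in qHF-SC, a difference of -0.87 ± 0.25, missed the threshold (adjusted p = 0.0973). Unc5a, Unc5c and Unc5d passed in no comparison, and Unc5d was at or below background.

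**Figure D4:**
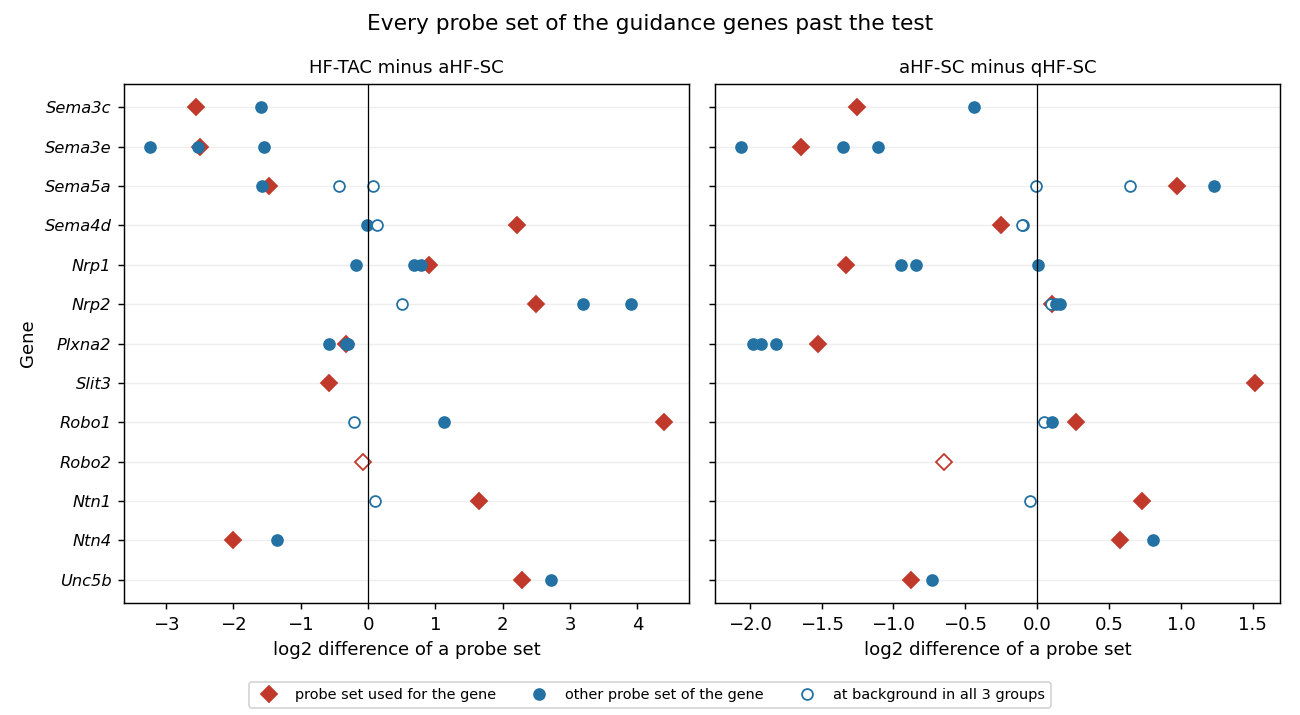
Log2 differences of HF-TAC against aHF-SC (left) and of aHF-SC against qHF-SC (right) for every probe set of the 13 genes past the test, with 1 point per probe set. Diamonds are the probe set used for the gene, and open symbols are probe sets at background in all 3 groups. Sema3e, Nrp2, Unc5b and Ntn4 keep 1 side over all their probe sets, and Sema4d has a probe set near 0.

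Other genes of the pathway, 64 listed and 61 measured, were receptors and co-receptors of these ligands (24) and intracellular mediators (37). In HF-TAC against aHF-SC, 3 rose and 14 fell, among them 1 and 8 of the receptors and co-receptors, beside 8.97% and 8.57% of all genes. In HF-TAC against qHF-SC, 6 rose and 11 fell, or 27.9% beside 26.3% of all genes. In aHF-SC against qHF-SC, 3 rose and 4 fell, or 11.5% beside 6.28%. The list's median log2 difference was -0.18, -0.05 and 0.19 in that order. The netrin receptors Dcc and Neo1 passed in no comparison. Neo1 was 591 and 910 in HF-TAC, 785 and 762 in aHF-SC, and 729 and 773 in qHF-SC.

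Nrcam, a cell adhesion molecule of the L1 family that can associate with neuropilins, was 13.8 and 13.5 in HF-TAC, 93.7 and 43.1 in aHF-SC, and 245 and 218 in qHF-SC. It passed as lower in HF-TAC than in aHF-SC (adjusted p = 0.00421) and than in qHF-SC (adjusted p = 0.000214), but the HF-TAC arrays are under the background level, so no size is given. It fell by 1.86 ± 0.33 in aHF-SC against qHF-SC (adjusted p = 0.0224). Flrt2, a membrane protein that binds Unc5 receptors, fell by 2.80 ± 0.20 in HF-TAC against qHF-SC (adjusted p = 0.000133) and in aHF-SC against qHF-SC by 1.51 ± 0.20 (adjusted p = 0.0105). Lrrc4, a ligand of netrin-G2, fell by 3.02 ± 0.46 in HF-TAC against aHF-SC (adjusted p = 0.00461) and by 1.93 ± 0.46 against qHF-SC (adjusted p = 0.0187). Its HF-TAC arrays read 13.4, under the background level, and 25.7, and its qHF-SC arrays 105 and 47.6, so these sizes are uncertain. Itga1, the integrin α1 subunit, fell by 3.27 ± 0.55 in HF-TAC against aHF-SC (adjusted p = 0.00708), with HF-TAC arrays close to background at 20.1 and 20.7. Enah, an actin regulator, fell by 1.79 ± 0.18 in the same comparison (adjusted p = 0.00118). Dpysl2, a mediator of semaphorin signalling known as CRMP2, rose in HF-TAC against qHF-SC by 2.66 ± 0.24 (adjusted p = 0.000356) and in aHF-SC against qHF-SC by 1.56 ± 0.24 (adjusted p = 0.0158). Ablim1, an actin-binding protein, fell by 1.70 ± 0.29 in aHF-SC against qHF-SC (adjusted p = 0.0209) and rose by 1.76 ± 0.29 in HF-TAC against aHF-SC (adjusted p = 0.00682).

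Markers of cells that could share a sort with follicle keratinocytes were read beside these results. For endothelial cells, which are known to express Nrp1, Nrp2, Plxnd1, Robo4 and Unc5b, the 8 listed markers summed to 117 and 124 in HF-TAC, 145 and 147 in aHF-SC, and 131 and 133 in qHF-SC. Of the 8, 6 were at or below background in HF-TAC, and Pecam1, Tie1, Cldn5 and Emcn were so in all groups. In HF-TAC, 1 marker passed as lower than in aHF-SC, and 1, Cdh5, as lower than in qHF-SC. In aHF-SC, 1 passed as higher than in qHF-SC. The part of endothelial cells in the Nrp2 and Unc5b values was not tested. For dermal fibroblasts the 7 markers summed to 3813 and 6335 in HF-TAC, 382 and 658 in aHF-SC, and 431 and 538 in qHF-SC. Dcn supplied most of it in HF-TAC, at a mean of 4786, while Lum, Dpt and Pdgfra were at or below background in every group. Of the listed collagens, Col1a1 averaged 41.5 in HF-TAC, 66.5 in aHF-SC and 46.2 in qHF-SC. In the same order Col1a2 averaged 109, 153 and 330, and Col3a1 104, 198 and 52.1. No collagen passed as higher in HF-TAC, and Col1a2 passed as lower there than in qHF-SC (adjusted p = 0.0194). The part of fibroblasts in the Nrp2 and Robo1 values was not tested. Melanocyte markers summed to 562 and 741 in HF-TAC, 485 and 556 in aHF-SC, and 1834 and 2009 in qHF-SC, where Mitf made up most of the sum. Dct, Mlana and Tyr were higher in HF-TAC than in qHF-SC. Muscle markers summed to 467 and 668 in HF-TAC, 5549 and 2936 in aHF-SC, and 425 and 492 in qHF-SC, with Acta2, Tagln and Myl9 higher in aHF-SC than in HF-TAC and Myh11 at background. Dermal papilla markers summed to 338 and 295 in HF-TAC, 270 and 196 in aHF-SC, and 202 and 236 in qHF-SC. Immune markers gave 260 and 259, 196 and 208, and 212 and 270 in that order, and no marker of either list passed. Schwann markers gave 258 and 292, 238 and 203, and 227 and 204. Among them, 1 passed as lower in HF-TAC than in aHF-SC and 1 as higher than in qHF-SC. The part of melanocytes, muscle, dermal papilla, immune and Schwann cells in the guidance genes' values was not tested.

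An offset of 16 added to every intensity before log2 shrinks differences among dim signals most. The spread and the adjustment over all genes were estimated anew in that run. With it, 8 calls were lost, not all of them of dim signals. They were Nrp2 in both HF-TAC comparisons (adjusted p = 0.0819 against aHF-SC and 0.0568 against qHF-SC), Ntn1 and Sema5a in HF-TAC against aHF-SC (adjusted p = 0.0802 and 0.05003), Ntn4 in HF-TAC against qHF-SC (adjusted p = 0.0512), Sema3e in aHF-SC against qHF-SC (adjusted p = 0.0925) and Robo2 in both comparisons with qHF-SC. On the arrays compared, Ntn4 lay between 274 and 1113 and Sema3e between 288 and 1367, far above the offset. Why their calls were lost was not tested.

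On the probe sets used, the 35 guidance genes that passed in no comparison differed by -0.61 to 0.98 in HF-TAC against aHF-SC, by -0.45 to 1.12 in HF-TAC against qHF-SC, and by -0.28 to 1.16 in aHF-SC against qHF-SC. Half-widths of their 95% intervals ran from 0.344 to 1.44, so differences of that size could not be resolved with 2 arrays a group. Of all members, 9, Sema3a, Sema3g, Sema6d, Plxnc1, Slit2, Robo2, Robo4, Ntn3 and Unc5d, were at or below the background level in every group, with arrays from 5.25 to 18.1, and a low intensity there is not a measure of absence.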

How the data were processed

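Total RNA was extracted with Trizol and 2 µg per sample was labelled as biotin cRNA. The authors deposited 1 linear intensity per probe set and array, from 3.832 to 31188.2, and per the submitters' processing notes RMA was used. The step at which it was used, or the chip definition, was not given in the sources used here. Median intensity per array was 22.85 to 23.96. The number of arrays limits the precision.

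Intensities were put on the log2 scale from the deposited values. Of 45101 probe sets, 64 controls were left out, 34945 had 1 gene symbol, 932 several and 9160 none. Each gene was read from its single-gene probe set with the highest mean over all arrays, giving 18193 genes. All 48 guidance symbols are unchanged in RefSeq (GRCm38.p6). The 3 groups were fitted in 1 model with limma 3.58.1 in R 4.3.3 (lmFit, contrasts.fit and eBayes, 3 residual and 4.254 prior degrees of freedom), with Benjamini-Hochberg adjustment over all genes and a threshold of 0.05. The script was tested on simulated data. The background level is the highest array median of 19 measured of 22 listed genes of other tissues.

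Members and lists were chosen with earlier results of these data known. Per-array values are given for members past the threshold and for the 3 largest differences per comparison that missed it, and of other pathway genes up to 4 per comparison. Values of Plxnb2, Plxnd1, Neo1, the further probe sets of Sema3f and Sema6a, and Ablim1 in a second comparison fall outside that rule and were chosen after they were seen. Alternatives covered normalization, the choice of probe set, an offset of 16, a filter on dim genes, array weights, an intensity trend, the replicate number as a block and leaving out each array. A fit of every probe set was added after seeing the data. Promoter windows matched 40 of 48 members.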

Additional observations from a re-analysis of the deposited data

How the results depend on the processing

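Of the 26 calls of guidance genes, 14 held in all alternatives run, 12 were lost in at least 1 and 0 changed direction. The count of guidance genes higher in aHF-SC than in qHF-SC was 2 in place of 1 both with the mean of all probe sets and with cross-hybridising probe sets left out, the gained gene being Sema3f. Both settings also called Sema3f lower in HF-TAC than in aHF-SC and Sema6a higher in HF-TAC in both of its comparisons, and the mean of all probe sets called Sema4a lower in HF-TAC than in aHF-SC. With the offset of 16, 2 fell in aHF-SC against qHF-SC in place of 4, and 3 fell in HF-TAC against qHF-SC in place of 5. Leaving out 1 array gave 1 to 3 higher and 0 to 4 lower in aHF-SC against qHF-SC, 3 to 7 higher and 3 to 4 lower in HF-TAC against aHF-SC, and 4 to 8 higher and 4 to 6 lower in HF-TAC against qHF-SC. The 0 came from limma without qHF-SC replicate 2, where 5 genes were lower at an unadjusted p under 0.05. The lone array was then assumed to vary like the other groups. The share of all genes that passed also moved with the array left out. These ranges of counts therefore cannot be read as a change particular to guidance genes. Sema3d in HF-TAC against qHF-SC was -0.19 without HF-TAC replicate 1 and 1.76 without HF-TAC replicate 2, and the cause was not tested. Same-numbered arrays did not deviate together (correlations of 0.0838, -0.127 and 0.0615). Low correlations cannot show whether same-numbered samples shared animals or a sort, so pairing was not settled. With the replicate block, 6 rose and 5 fell in each HF-TAC comparison, and 1 rose and 4 fell in aHF-SC against qHF-SC. The block lost Robo2 (adjusted p = 0.0756) and gained Unc5b in aHF-SC against qHF-SC, and it gained Plxna3 in HF-TAC against aHF-SC (adjusted p = 0.0472). Sema4c in HF-TAC against qHF-SC passed in 6 alternatives, and Sema3c in aHF-SC against qHF-SC passed without either HF-TAC array (adjusted p = 0.0129 each time). With 2 arrays a group, signal near background and small differences were not resolved.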
